A study of Homo sapiens with 6 samples.

Results

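Gene expression changes that a miR-608 mimic and a miR-552-3p mimic had in common were followed in A549, a widely used line from a human lung adenocarcinoma, by setting the 4 arrays of mimic-transfected cells together against the 2 arrays of cells given a negative control mimic. All 6 arrays of the series entered. One pair of arrays came from A549 cells given miR-608 mimic, one pair from cells given miR-552-3p mimic and one pair from cells given negative control mimic. Each group was grown in RPMI-1640 with fetal bovine serum and transfected with Lipofectamine RNAiMAX, a lipid carrier, and RNA was taken 24 h later for Illumina bead arrays. The labels do not say that the arrays of a pair came from separate cultures, so the p-values measure the spread between these arrays, which may be technical. Of 47319 probes, 20749 had a detection p under 0.05 on 2 or more arrays, and after keeping 1 probe per named gene they gave 16891 features, made up of 11817 named genes and 5074 probes with no gene name.

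A feature was a member when its 4 mimic arrays all lay above, or all below, both control arrays. This held for 5632 of the 16891 features (33.3%), with 2924 above (17.3%) and 2708 below (16%). Of these, 3875 (22.9% of the features) also passed limma's test of both mimics together minus control at an adjusted p under 0.05, and these make up the common response. Membership did not require that each mimic alone passed the test. Both mimics were set against the same 2 control arrays, so a response shared by the mimics and a shift of the control cells cannot be told apart. These are arrays of whole cultures, so fewer cells of a kind and less RNA per cell cannot be told apart either.

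A mature microRNA is loaded into an Argonaute protein and pairs, mainly through the seed near its 5′ end, with messenger RNAs, which are then repressed and degraded with the help of TNRC6 proteins. A transfected mimic supplies such a small RNA in large amounts, and changes in transcription factors and signalling genes can follow from its direct targets. AP-1 (dimers of JUN and FOS proteins) and NF-kB switch on cytokine genes such as CXCL8 in airway epithelial cells, while E2F factors switch on genes of DNA replication.

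The mature sequences show how far the mimics' seeds differ. They are RefSeq's entries of build GRCh38.p14, at chr10:100975000-100975024 on the plus strand for miR-608 and chr1:34669614-34669634 on the minus strand for miR-552-3p, with the seed (bases 2 to 8) in capitals.
hsa-miR-608: aGGGGUGGuguugggacagcuccgu
hsa-miR-552-3p: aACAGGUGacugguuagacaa
The 7-base seeds had the same base at 2 positions, and the longest run of bases found in both, at any offset, was 4 bases.

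The regions before 4 genes of the common response are shown because they hold motifs named after the factors above. They are the 250 bases before the annotated start from RefSeq's promoter table of GRCh38.p14, written along the gene's strand, with motif matches in capitals. CXCL8 lies at chr4:73740319-73740568 (plus strand), CXCL5 at chr4:73998678-73998927 (minus), IL11 at chr19:55370464-55370713 (minus) and E2F2 at chr1:23531234-23531483 (minus).
CXCL8: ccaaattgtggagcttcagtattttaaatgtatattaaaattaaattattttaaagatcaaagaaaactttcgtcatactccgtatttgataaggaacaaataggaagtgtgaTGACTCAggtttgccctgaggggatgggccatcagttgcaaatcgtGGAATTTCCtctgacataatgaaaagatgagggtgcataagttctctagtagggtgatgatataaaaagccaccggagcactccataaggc
CXCL5: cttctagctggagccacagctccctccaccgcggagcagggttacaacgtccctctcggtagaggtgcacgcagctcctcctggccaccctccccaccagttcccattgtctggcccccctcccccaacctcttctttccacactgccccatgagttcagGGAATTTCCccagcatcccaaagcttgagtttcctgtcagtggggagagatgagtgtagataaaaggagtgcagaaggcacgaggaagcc
IL11: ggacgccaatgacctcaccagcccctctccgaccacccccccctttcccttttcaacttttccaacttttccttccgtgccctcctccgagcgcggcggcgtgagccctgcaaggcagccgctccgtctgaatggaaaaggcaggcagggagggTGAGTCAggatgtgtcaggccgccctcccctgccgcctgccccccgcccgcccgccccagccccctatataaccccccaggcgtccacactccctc
E2F2: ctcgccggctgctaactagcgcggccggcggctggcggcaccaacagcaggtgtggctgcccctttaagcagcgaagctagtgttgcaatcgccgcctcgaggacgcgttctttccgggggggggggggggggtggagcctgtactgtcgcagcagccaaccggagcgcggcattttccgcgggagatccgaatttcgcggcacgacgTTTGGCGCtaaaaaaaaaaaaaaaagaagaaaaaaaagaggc
The motifs searched on both strands were TGANTCA for AP-1, TGACGTCA for the cyclic AMP response element, GGNNTTTCC for NF-kB, and TTTCCCGC and TTTGGCGC for E2F, where N is any base, in windows of 300 bases (250 before to 50 after the start). The 8-base cyclic AMP motif cannot overlap a TGANTCA match in full, since their middle bases differ. Of 27305 promoters in the table, 7.76% held the AP-1 motif, 6.26% the NF-kB motif, 1.98% the cyclic AMP motif, and 1.66% and 0.659% the E2F motifs TTTCCCGC and TTTGGCGC. In CXCL8 the AP-1 match began 137 bases and the NF-kB match 91 bases before the start. The NF-kB match of CXCL5 began 90 bases, the AP-1 match of IL11 96 bases and the TTTGGCGC match of E2F2 42 bases before the start. A match is a description of these letters and not a binding site.

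The arrays were of like brightness, with median signals of 181.7 to 200.7 and 18550 to 19758 detected probes. Arrays of one pair correlated at 0.994 on the log2 scale over all features, and arrays of different groups at 0.969 to 0.979. Of the 10 A549 epithelial markers listed, 9 were measured, and their summed signal was 190640 to 210502 on the mimic arrays against 223765 to 225619 on the control arrays. Of these markers 2 were called, both lower, and 7 were not called, beside 29.5% of all features called. Their median difference was 0.02, beside 0.01 for all features. It was -0.02 after miR-608 and -0.22 after miR-552-3p, beside 0.02 for all features with each. The 2 called are given next. ALDH3A1, an aldehyde dehydrogenase abundant in this line, stood at 14.87, 15.01, 15.41 and 15.47 on the mimic arrays against 15.82 and 15.74 on the control arrays (-0.59 ± 0.07, adjusted p = 0.00595), and the adhesion protein EPCAM differed by -0.38 ± 0.06 (adjusted p = 0.0115, or 0.0662 without control replicate 1 and 0.0616 without control replicate 2), though not with miR-608 alone (-0.11, adjusted p = 0.3). Of 12 fibroblast and endothelial markers 3 passed the detection filter and none was called. Of 9 immune markers on the array 3 passed, and their summed signal was 2838 to 4935 with the mimics and 3274 to 3478 with control. One of the 3, CD14, was a common fall by the pooled test (-0.70 ± 0.07, adjusted p = 0.0040), with a difference of -0.19 after miR-608 that did not pass (adjusted p = 0.161). Of 8 alveolar type II markers on the array 3 passed, with sums of 731 to 1237 with the mimics and 643 to 722 with control. One of these, ABCA3, was a common rise (0.56 ± 0.10, adjusted p = 0.0151, or 0.0739 without control replicate 1), with a difference of 0.17 after miR-552-3p that did not pass (adjusted p = 0.324). The part of these markers in the results was not tested.

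Both mimics together minus control gave 4979 called features (29.5%), of which 2285 were higher (13.5%) and 2694 lower (15.9%). The 3875 of them with separated arrays split into 1899 higher (11.2%) and 1976 lower (11.7%). Among the common rises the median difference was 0.50 on the log2 scale, and among the common falls it was -0.59, while the median over all features was 0.01. Counted by the smaller of the 2 mimics' own differences, the medians were 0.35 and -0.37. Changes of at least 2-fold with each mimic were reached by 74 of the rises (3.90%) and 88 of the falls (4.45%), and changes of at least 3-fold by 6 in each direction. The mimics also differed from each other (miR-608 minus miR-552-3p, adjusted p under 0.05) in 748 of the rises (39.4%) and 972 of the falls (49.2%), beside 37.1% of all features. Taken alone, miR-608 minus control called 29.3% of the features and miR-552-3p minus control 31.4%, at the same threshold. A side is a hard rule: 1041 features lay inside it by less than 0.05 log2 and 1275 missed it by less than 0.05, while the median SD between the 2 control arrays was 0.09.

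These counts rest on the spread within each pair. In a 2-group fit, where the difference between the mimics counts as spread, 360 features were called (2.13%), 167 higher (0.989%) and 193 lower (1.14%), all of them in the common response. Without control replicate 1 the common response held 799 rises and 910 falls, and without control replicate 2 it held 886 and 935. With no detection filter it held 1087 and 1303.

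**Figure D1:**
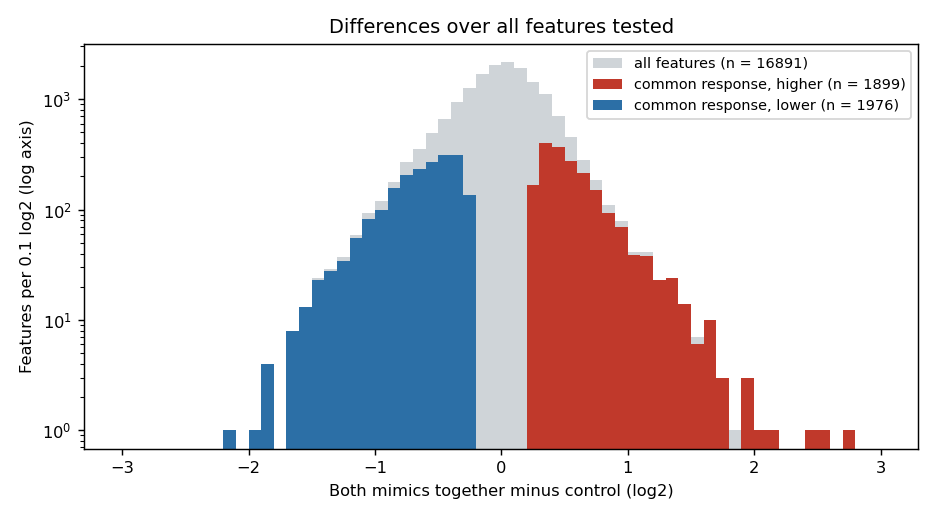
Difference of both mimics together minus control (x axis, log2) against the number of features per bin (y axis, log scale), for all 16891 features in grey and the common response in red (1899 higher) and blue (1976 lower). The coloured bars begin on both sides of 0 and make up nearly all of the features at the far ends.

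The genes named next are the 14 with the largest rises and the 14 with the largest falls by the smaller of the 2 mimics' differences, among genes detected with each mimic and with control. Values are normalized log2 signals, and each difference is given with its standard error from limma and 2 arrays per group. A log2 difference of 1 is a 2-fold change. Unless another value is given, the adjusted p of a rise was 0.00188.

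Of these rises, CXCL8, CXCL5 and IL11 encode secreted cytokines. CXCL8, the neutrophil chemokine IL-8, stood at 13.14 and 13.10 after miR-608, at 13.44 and 13.35 after miR-552-3p and at 11.61 and 11.49 with control. The 4 mimic arrays lay within 0.33 of each other and all above the control, a rise of 1.70 ± 0.07 or 3.25-fold. CXCL5, a second chemokine for neutrophils, stood at 13.15 and 13.13 after miR-608, 12.94 and 12.83 after miR-552-3p and 11.60 and 11.43 with control, a rise of 2.82-fold. Second probes of both chemokines rose as well, by 1.52 ± 0.08 for CXCL8 and 1.92 ± 0.11 for CXCL5. IL11, a cytokine of the IL-6 family, stood at 10.59 and 11.20 after miR-608, 11.86 and 11.87 after miR-552-3p and 9.58 and 9.26 with control. Its miR-608 arrays lay apart from each other and below both miR-552-3p arrays, but above both control arrays (1.96 ± 0.19, adjusted p = 0.0036). IL11 was not called in the 2-group fit (adjusted p = 0.0638).

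Among receptors and surface enzymes, EPHA2, an ephrin receptor tyrosine kinase, stood at 11.04 and 11.22 after miR-608, 11.29 and 11.36 after miR-552-3p and 9.57 and 9.62 with control (1.63 ± 0.08). TNFRSF12A, the receptor of the cytokine TWEAK, stood at 12.96 and 13.09 after miR-608, 13.32 and 13.12 after miR-552-3p and 11.49 and 11.76 with control (1.49 ± 0.11, adjusted p = 0.00228). In both genes the mimic arrays formed one cluster above the control arrays, with no called difference between the mimics. NT5E (CD73), which makes adenosine outside the cell, stood at 12.62 and 12.61 after miR-608, 12.29 and 12.36 after miR-552-3p and 10.73 and 10.84 with control (1.68 ± 0.07). OXTR, the oxytocin receptor, stood at 10.12 and 10.07 after miR-608, 10.88 and 10.71 after miR-552-3p and 8.79 and 8.70 with control (1.70 ± 0.08). NT5E was higher with miR-608 than with miR-552-3p and OXTR the other way round, and neither gene had a mimic array near the control.

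Of the 14 genes, FOSL1 and BIK had the largest pooled rises and the largest differences between the mimics. FOSL1, the AP-1 subunit FRA1, stood at 9.94 and 9.91 after miR-608, 11.39 and 11.45 after miR-552-3p and 7.76 and 7.99 with control. The 3 pairs formed separate steps, and the pooled rise was 2.80 ± 0.09 or 6.96-fold, made of 2.05 ± 0.10 after miR-608 and 3.55 ± 0.10 after miR-552-3p. BIK, a BCL2-family protein that promotes apoptosis, stood at 9.64 and 9.65 after miR-608, 8.18 and 8.32 after miR-552-3p and 6.45 and 6.40 with control, a rise of 2.52 ± 0.07. Here the larger step was that of miR-608. In the 2-group fit neither passed (adjusted p = 0.0591 for FOSL1 and 0.063 for BIK), and without background correction the BIK rise was 1.52.

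C3orf52 was the most even of the large rises: it stood at 10.07 and 10.10 after miR-608, 10.07 and 10.10 after miR-552-3p and 8.13 and 7.90 with control. All 4 mimic arrays lay within 0.03 of each other, 2.07 ± 0.09 above the control. YOD1, a deubiquitinase, stood at 10.87 and 10.84 after miR-608, 11.01 and 10.89 after miR-552-3p and 9.19 and 9.31 with control (1.66 ± 0.07). PHLDA2, an imprinted gene of the pleckstrin-homology-like family, stood at 9.60 and 9.68 after miR-608, 9.40 and 9.23 after miR-552-3p and 7.92 and 7.71 with control (1.67 ± 0.10). In both genes the 4 mimic arrays again lay together above the control, and the mimics did not differ by the test. RGS17, which switches off G-protein signals, stood at 11.74 and 11.46 after miR-608, 11.33 and 11.27 after miR-552-3p and 9.91 and 9.94 with control (1.53 ± 0.10, adjusted p = 0.00191). PDLIM7, a LIM-domain protein of the actin cytoskeleton, stood at 11.81 and 11.77 after miR-608, 11.44 and 11.47 after miR-552-3p and 9.41 and 9.51 with control (2.16 ± 0.07). Of its other 2 probes, one rose by 1.53 ± 0.23 and one differed by 0.78 ± 0.26 without passing the test. The rises stop at OXTR, whose smaller difference was 1.35, and the first gene left out, UGCG, also had 1.35 after rounding.

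**Figure D2:**
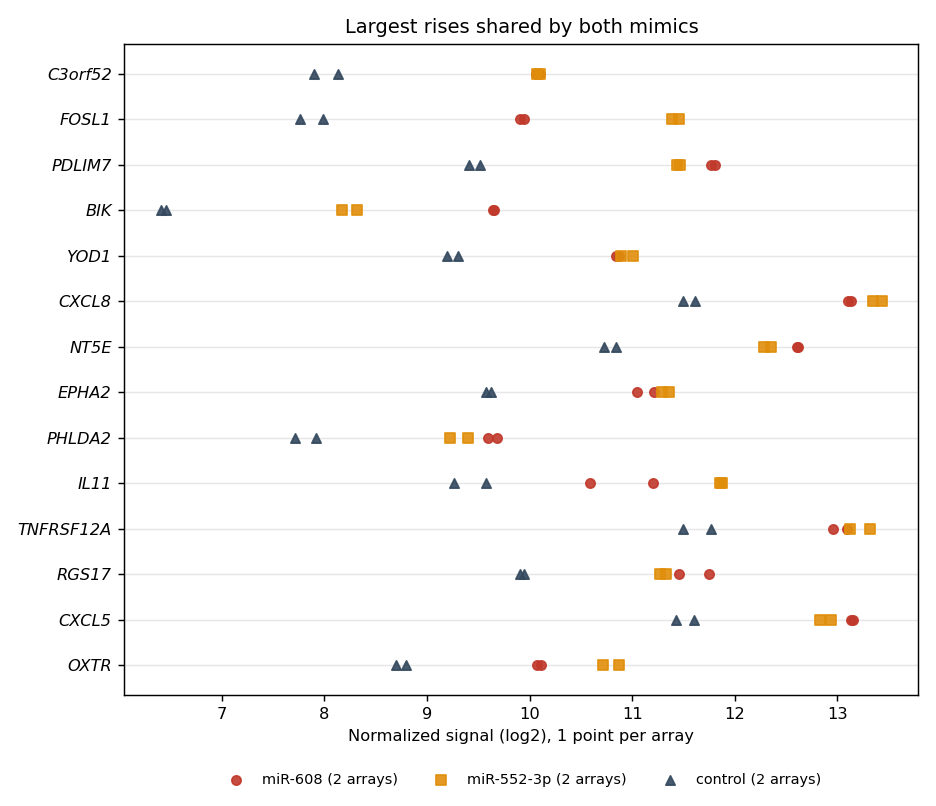
Normalized log2 signal (x axis) of the 14 largest common rises (y axis), 1 point per array, for miR-608 (circles), miR-552-3p (squares) and control (triangles). By the membership rule both control arrays lie left of the 4 mimic arrays in each gene. In FOSL1 and BIK the mimics form separate steps.

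By the smaller of both mimics' differences the largest fall was that of FOS, the AP-1 subunit that acts as an immediate-early gene, while its relatives FOSL1 and JUN rose. It stood at 8.89 and 8.66 after miR-608, 8.47 and 8.20 after miR-552-3p and 10.78 and 10.19 with control, so the control arrays themselves lay 0.59 apart. All mimic arrays lay below both (-1.93 ± 0.20, adjusted p = 0.00375). SOX2, a stem cell transcription factor, stood at 8.46 and 8.46 after miR-608, 8.86 and 8.35 after miR-552-3p and 10.18 and 9.95 with control (-1.54 ± 0.16, adjusted p = 0.00425), and its second probe fell by 1.13 ± 0.23. S1PR3, a receptor of sphingosine 1-phosphate, stood at 9.15 and 9.08 after miR-608, 9.12 and 9.27 after miR-552-3p and 10.66 and 10.49 with control (-1.42 ± 0.09, adjusted p = 0.00188). In both genes the levels with the 2 mimics overlapped and lay well below the control.

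CEMIP, which takes part in the breakdown of hyaluronan, stood at 8.90 and 8.70 after miR-608, 7.97 and 7.87 after miR-552-3p and 10.32 and 10.17 with control (-1.89 ± 0.09, adjusted p = 0.00188). It fell with both mimics, and more with miR-552-3p. DNAJC8, a splicing-associated J-domain protein, stood at 11.77 and 11.78 after miR-608, 12.18 and 12.10 after miR-552-3p and 13.47 and 13.46 with control (-1.51 ± 0.06, adjusted p = 0.00188). POM121C, a nuclear pore protein with near-identical relatives that could share its probe, stood at 10.47 and 10.41 after miR-608, 10.34 and 10.23 after miR-552-3p and 11.91 and 12.004 with control (-1.60 ± 0.07, adjusted p = 0.00188). These were the brightest of the falls, and the arrays of a pair lay at most 0.08 apart for DNAJC8 and 0.11 apart for POM121C. CPLX2, a complexin of synaptic vesicle release, stood at 7.63 and 7.36 after miR-608, 7.82 and 8.01 after miR-552-3p and 9.40 and 9.68 with control (-1.83 ± 0.13, adjusted p = 0.00211). ADGRL1, an adhesion G-protein-coupled receptor, stood at 7.62 and 7.39 after miR-608, 7.53 and 7.81 after miR-552-3p and 9.08 and 8.91 with control (-1.41 ± 0.12, adjusted p = 0.00265). The falls stop at ADGRL1, with a smaller difference of -1.33, and the first gene left out was BTBD2, with -1.32.

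The remaining 6 large falls were dim genes, and the size of their fall depended on background correction. The size also varied for CPLX2 and ADGRL1 above, whose smallest differences over the other settings tried were -1.33 and -0.96. NAV1, a neuron navigator protein, stood at 6.26 and 6.25 after miR-608, 6.29 and 7.096 after miR-552-3p and 8.40 and 8.26 with control (-1.86 ± 0.23, adjusted p = 0.00589). One miR-552-3p array lay apart from the other 3 mimic arrays, though still below the control. IQGAP2, a scaffold of the actin cytoskeleton, fell by 1.68 ± 0.15 (adjusted p = 0.00295) and was detected on 1 of the 2 arrays of each mimic. GSTO2, a glutathione transferase, fell by 1.68 ± 0.20 (adjusted p = 0.00525). RBM15B, an RNA-binding protein, fell by 1.54 ± 0.25 (adjusted p = 0.0116), but its call was lost when control replicate 1 (adjusted p = 0.0717) or replicate 2 (0.0676) was left out. ACOT11, an acyl-CoA thioesterase, fell by 1.66 ± 0.23 (adjusted p = 0.00817) on one probe, lost the call without control replicate 1 (0.0587) or control replicate 2 (0.0523), and differed by 0.08 ± 0.09 on its other probe. MVB12B, a subunit of the ESCRT-I sorting complex, fell by 1.45 ± 0.10 (adjusted p = 0.0020) on one probe and differed by 0.03 ± 0.22 on the other. Without background correction the differences were -1.01 for NAV1, -0.84 for IQGAP2, -0.91 for GSTO2, -0.85 for RBM15B, -0.92 for ACOT11 and -0.96 for MVB12B. Averaged over both probes, ACOT11 differed by -0.79 and MVB12B by -0.71.

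**Figure D3:**
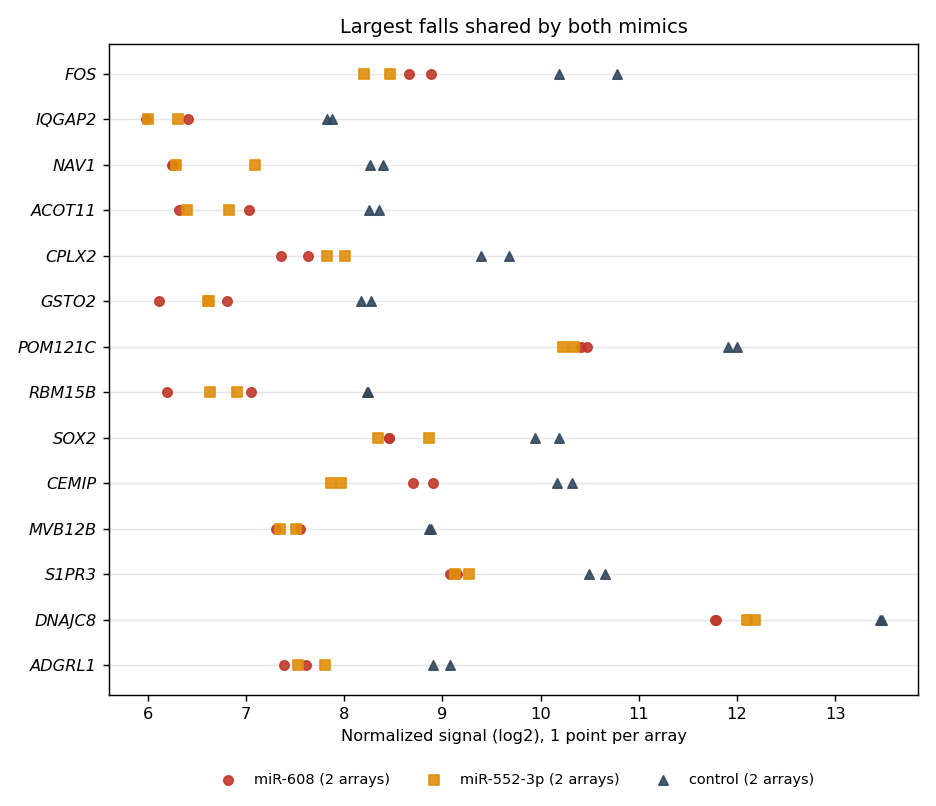
Normalized log2 signal (x axis) of the 14 largest common falls (y axis), 1 point per array, for miR-608 (circles), miR-552-3p (squares) and control (triangles). By the membership rule the 4 mimic arrays lie left of both control arrays in each gene. The FOS control arrays are 0.59 apart.

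Some genes were detected only on one side, so their fold change is a bound against the background level. They passed the detection filter through the side where they were high, which had to favour a difference, so their values are given as a description with no test. RRAD, a small RAS-related GTPase, was detected on all 4 mimic arrays (7.42 and 7.74 after miR-608, 8.51 and 8.41 after miR-552-3p) and on neither control array (5.83 and 5.34), and was at least 3.54-fold higher. CACUL1, a CDK2-associated cullin-domain protein, was at least 3.01-fold higher, MICA, a stress ligand of the NKG2D receptor, at least 2.91-fold, and REPS2, an endocytosis adaptor, at least 2.39-fold. Other probes gave smaller differences, of 1.21 ± 0.10 on the log2 scale for RRAD, and of 0.98 ± 0.08 and 0.40 ± 0.14 for REPS2. In the other direction SH3BP1, a RAC GTPase-activating protein, was detected on both control arrays (7.17 and 7.21) and on no mimic array (5.87 and 5.996 after miR-608, 6.10 and 6.002 after miR-552-3p). It was at least 1.96-fold lower. MDGA2, a synaptic membrane protein, was at least 1.95-fold lower, the cyclin-dependent kinase CDK18 at least 1.89-fold and the lens crystallin gene CRYBB2 at least 1.62-fold. These bounds hold only with the background correction used. Without it the log2 differences were 1.30 for RRAD, 0.89 for CACUL1, 0.81 for MICA and 0.83 for REPS2, and -0.55 for SH3BP1, -0.81 for MDGA2, -0.76 for CDK18 and -0.43 for CRYBB2, each smaller than its bound.

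Of the 14 genes with the largest rises, 10 had a window in the promoter table, fewer than 80%, so a count of motifs over them is void. By gene, the AP-1 motif lay in CXCL8, IL11 and YOD1, the NF-kB motif in CXCL5, CXCL8 and PDLIM7, and the cyclic AMP motif in EPHA2. None of the 5 motifs lay in the 13 windows found for the 14 largest falls. Each motif lay in only 1.07% to 6.65% of the windows of all named genes. So 13 windows are too few for a reading, and no contrast with the rises is drawn. Of the 1478 named genes of the common rises 1160 had a window, again fewer than 80%, so shares over them are void too. Of the 1623 named genes of the common falls 1340 had a window, and of all 11817 named genes 9534. In the windows of the falls, 6.49% held the NF-kB motif, 3.96% the AP-1 motif and 3.58% the cyclic AMP motif, beside 6.65%, 4.68% and 3.38% of the windows of all named genes. For the E2F motifs the shares were 3.51% for TTTCCCGC and 1.79% for TTTGGCGC in the falls, beside 2.69% and 1.07%. No test was run on these shares.

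The AP-1 and immediate-early list moved in both directions. Of its 19 measured genes, 12 were common rises and 3 common falls, beside 11.2% and 11.7% of all features, and the list's median difference was 0.47 against 0.01 for all features. The same shares of all features stand beside the counts of every list below. JUN, the main partner of FOS-family proteins, stood at 11.36 and 11.32 after miR-608, 12.43 and 12.33 after miR-552-3p and 10.54 and 10.12 with control (1.53 ± 0.13, adjusted p = 0.00264). DUSP5, a phosphatase that acts on nuclear ERK, stood at 12.76 and 12.66 after miR-608, 12.71 and 12.78 after miR-552-3p and 11.43 and 11.35 with control (1.34 ± 0.07, adjusted p = 0.00188). DUSP5 rose evenly, while JUN and FOSL1 rose more with miR-552-3p. KLF6, a zinc finger factor, rose by 0.90 after miR-608 and 1.75 after miR-552-3p, and ATF3, a stress-induced factor, by 0.45 and 1.38. The other rises of the list lay between 0.34 (SPRY4) and 0.93 (JUNB). SPRY4, an inhibitor of receptor tyrosine kinase signalling, lost its call in many settings: it did not pass with miR-608 alone (0.25, adjusted p = 0.0918), without either control array (0.135 and 0.0851), without either miR-608 array, without miR-552-3p replicate 2 or with the replicate block (0.0501). Its value was 0.22 with median scaling and 0.15 over all its kept probes (adjusted p = 0.165 and 0.533). The list held 9 to 12 genes called higher when single arrays were left out in turn.

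The 3 falls of that list were FOS, EGR1 and DUSP4. EGR1, an immediate-early zinc finger factor, stood at 9.23 and 9.36 after miR-608, 9.59 and 9.46 after miR-552-3p and 11.08 and 10.22 with control (-1.24 ± 0.25, adjusted p = 0.02). As with FOS, control replicate 1 was the highest array, and EGR1's control arrays lay 0.86 apart. Without any 1 of the mimic arrays EGR1 just missed the threshold (adjusted p = 0.0506 to 0.0549). DUSP4, an ERK phosphatase, was detected on both control arrays, on neither miR-608 array and on 1 of the 2 miR-552-3p arrays, so that it passed the detection filter only with the control arrays (-0.59 ± 0.09, adjusted p = 0.00937), and its difference with miR-552-3p alone did not pass (-0.29, adjusted p = 0.089). It was not called without control replicate 1 (0.0538) or control replicate 2 (0.0602). The 2-group fit called 1 gene of the list higher and 1 lower, and neither JUN (adjusted p = 0.109) nor EGR1 (0.0652) was among them.

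Of 21 measured genes of NF-kB and its induced cytokines, 10 were common rises and 1, PTGS2, a common fall, with a list median of 0.68. That median was 0.41 without background correction, and 0.51 without control replicate 1. Beside CXCL8, CXCL5 and IL11, the cytokine IL32 stood at 9.09 and 9.09 after miR-608, 7.50 and 7.46 after miR-552-3p and 6.42 and 6.75 with control (1.70 ± 0.11, adjusted p = 0.00188), or 0.99 without background correction. The subunit genes RELB (0.78 ± 0.10, adjusted p = 0.00587) and NFKB2 (0.87 ± 0.09, adjusted p = 0.00367) rose, as did NFKBIE, which encodes an inhibitor of NF-kB (0.87 ± 0.13, adjusted p = 0.00966, or 0.062 without control replicate 1). RELB, NFKBIE and IL32 passed with each mimic alone, but NFKB2's difference with miR-608 did not (0.33, adjusted p = 0.0635). The pooled test did not call 8 measured genes of the list. These were the other subunit genes, NFKB1, REL and RELA, the inhibitor genes NFKBIB and TNFAIP3, and the cytokine genes IL6, CXCL1 and CCL2. PTGS2, the inducible cyclooxygenase, stood at 12.08 and 12.09 after miR-608, 10.96 and 10.92 after miR-552-3p and 12.15 and 12.11 with control. It met the side rule, but its fall was that of miR-552-3p (-1.19, adjusted p = 0.00097), and its difference with miR-608 was -0.04 (adjusted p = 0.681). CCL20, a chemokine, was called higher in the pooled test (0.79 ± 0.06) without being a member: it rose with miR-608 by 1.82, while with miR-552-3p its difference was -0.24 (adjusted p = 0.0672). The 2-group fit called 3 genes of the list higher, without RELB (adjusted p = 0.101) and NFKB2 (0.3).

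Genes of the G1 phase, E2F and DNA replication had the lowest median of the 15 lists. Of 35 measured, 16 were common falls and 0 common rises, and the median was -0.34 (-0.17 after miR-608 and -0.41 after miR-552-3p). The pooled test called 1 gene of the list higher, CCND1 (cyclin D1, 0.30), which was not a member. CCND1 was not called in the 2-group fit (adjusted p = 0.52). E2F2, an activating E2F factor, stood at 9.73 and 9.50 after miR-608, 9.11 and 9.15 after miR-552-3p and 10.77 and 10.80 with control (-1.41 ± 0.09, adjusted p = 0.00188). CCND3, cyclin D3, stood at 12.89 and 12.99 after miR-608, 12.02 and 11.999 after miR-552-3p and 13.58 and 13.64 with control (-1.14 ± 0.07, adjusted p = 0.00188). Both fell with each mimic and further with miR-552-3p. CDK6, the kinase that cyclin D3 activates, stood at 10.81 and 10.79 after miR-608, 10.71 and 10.77 after miR-552-3p and 11.57 and 11.81 with control (-0.92 ± 0.09, adjusted p = 0.00333). Here the mimics fell alike, at -0.90 and -0.95, with no called difference between them. Of the MCM helicase, MCM2 (-0.57 ± 0.06, adjusted p = 0.00431) and MCM3 (-0.57 ± 0.06, adjusted p = 0.00443) fell to nearly one level with both mimics, and MCM4, MCM6 and MCM7 were also common falls, though each of these lost its call without one of the control arrays (adjusted p = 0.083, 0.0631 and 0.0975 without control replicate 1), and MCM4 did not pass with miR-552-3p alone (-0.30, adjusted p = 0.0746). The remaining helicase subunit, MCM5, differed by 0.00 ± 0.06 (adjusted p = 0.996), and the sliding clamp PCNA by -0.11 ± 0.06 (adjusted p = 0.28). Leaving out single arrays in turn left 12 to 18 genes of the list called lower. In the 2-group fit 2 were called lower, and MCM2 (adjusted p = 0.052) and MCM3 (0.0519) were just outside.

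Mitosis genes were less uniform: 9 of 29 were common falls and 0 common rises, with a median of -0.14. Without control replicate 1 or without control replicate 2 the list held 5 common falls. FOXM1, a factor that drives mitotic genes, stood at 9.27 and 9.32 after miR-608, 11.01 and 11.01 after miR-552-3p and 11.51 and 11.40 with control (-1.30 ± 0.07, adjusted p = 0.00188). Its fall was 2.16 after miR-608 and 0.45 after miR-552-3p. CENPF, a kinetochore protein, fell by 0.75 after miR-608 and 1.07 after miR-552-3p. BIRC5 (survivin) and CDCA3 were called lower in the pooled test but were not members. BIRC5 differed by -0.01 after miR-608 and -1.89 after miR-552-3p, and CDCA3 by -2.08 after miR-608 and 0.13 after miR-552-3p. None of the list's calls was kept in the 2-group fit, which called 0 of its genes.

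**Figure D4:**
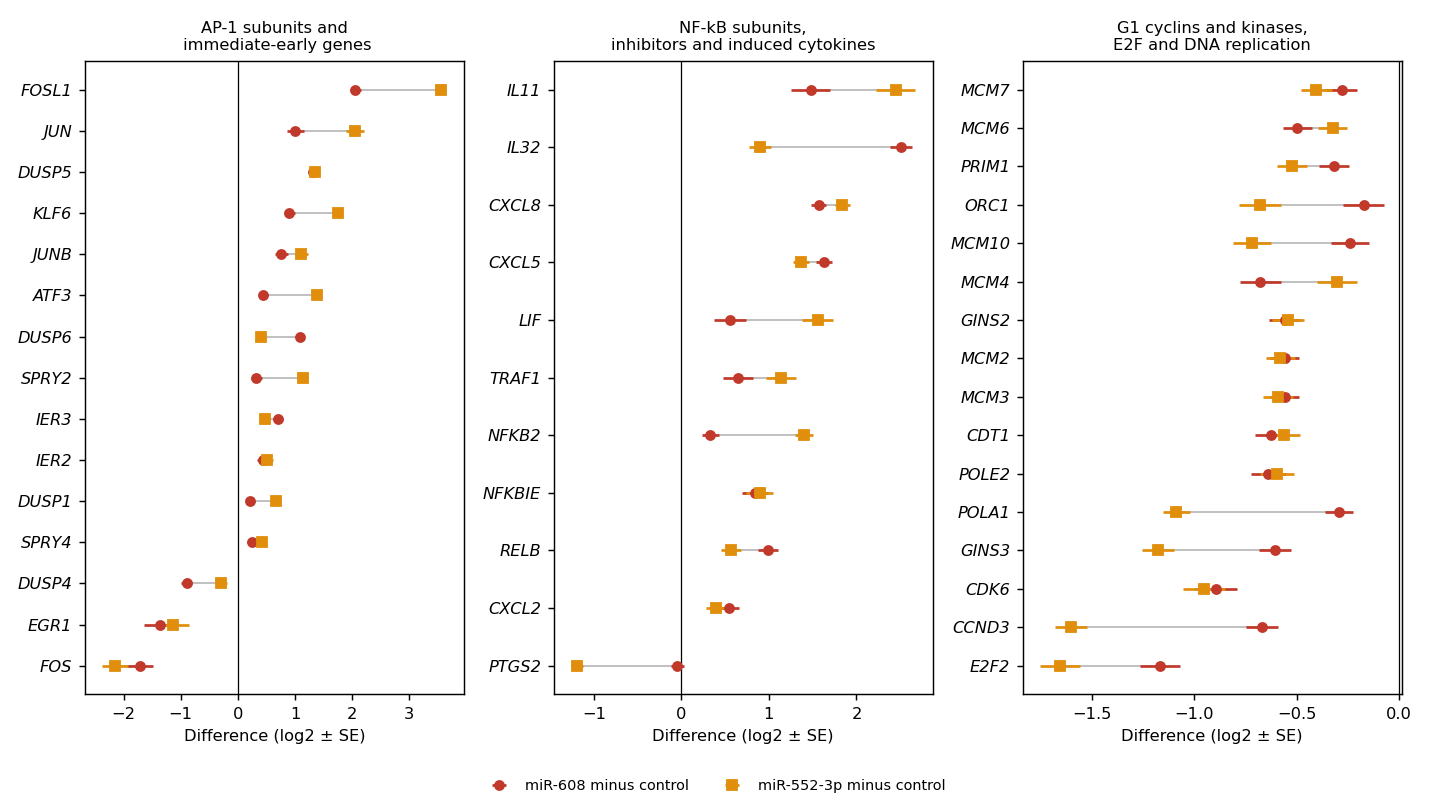
Difference of miR-608 (circles) or miR-552-3p (squares) from control for the common-response members of 3 gene lists, on the log2 scale with standard errors. DUSP5, CDK6, MCM2 and MCM3 moved evenly, while FOSL1, IL32 and CCND3 moved further with one mimic, and PTGS2 stood near 0 with miR-608.

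The lists of extracellular proteolysis and of SRF, YAP and TGF-beta targets held a few large rises. Of 13 genes of the urokinase system and extracellular proteolysis, 5 were common rises (median 0.26), or 3 without any 1 of the control or miR-608 arrays. PLAUR, the urokinase receptor, stood at 11.43 and 11.42 after miR-608, 10.67 and 10.65 after miR-552-3p and 9.73 and 9.70 with control (1.33 ± 0.06, adjusted p = 0.00188). PLAU, urokinase itself, rose by 2.10 after miR-608 and 0.67 after miR-552-3p, so receptor and ligand were both higher with each mimic and more so with miR-608. The remaining rises were ADAM9, ADAM17 and SERPINE2 (0.53, 0.30 and 0.27). ADAM17 did not pass with miR-552-3p alone (adjusted p = 0.454) and SERPINE2 not with miR-608 alone (0.121), and both lost their pooled call without control replicate 1 and without control replicate 2. The 2-group fit called 0 genes of the list, which held 6 called higher and 2 called lower in the 3-group fit. The 2 called lower were CTSB (-0.48) and TIMP2 (-0.57), and neither was a common fall. Over all its kept probes TIMP2 differed by 0.29 without passing the test (adjusted p = 0.0906). Of 18 targets of SRF, YAP and TGF-beta signalling, 5 were common rises and 1, ID1, a common fall (median 0.17). The pooled test called 7 of the list higher and 3 lower. Beside ID1, those lower were ID3 (-0.59) and TPM2 (-0.38), which were not members. ID1 lost its call when control replicate 1 (adjusted p = 0.0686), control replicate 2 (0.0931) or miR-608 replicate 2 (0.0503) was left out. The matricellular genes CCN1 (0.94 with miR-608, 2.05 with miR-552-3p) and CCN2 (1.61 and 1.07) and the actin-binding TAGLN (1.55 and 1.09) rose by over 2-fold in the pooled value.

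The cholesterol and hypoxia lists both had medians above that of all features. Of 18 cholesterol genes 8 were common rises and 0 common falls (median 0.29), with fewer common rises when either control array was left out. The pooled test also called 1 gene lower, DHCR7 (-0.41), which was not a member. HMGCS1, which makes the HMG-CoA of this pathway, stood at 12.34 and 12.43 after miR-608, 12.97 and 12.78 after miR-552-3p and 11.45 and 11.54 with control (1.13 ± 0.09, adjusted p = 0.00227). SQLE, squalene epoxidase, rose by 0.56 after miR-608 and 0.53 after miR-552-3p. The 2-group fit called 0 genes of the list, and HMGCS1 and SQLE just missed (adjusted p = 0.0519 and 0.0591). Of 21 hypoxia and glycolysis genes, 8 were common rises, among them the glucose transporter SLC2A1 (0.71 ± 0.07, adjusted p = 0.00379), and 2 were common falls, the glycolytic PKM (-0.84 ± 0.06, adjusted p = 0.00228) and PFKFB3 (-0.58 ± 0.07, adjusted p = 0.00513), with a list median of 0.21. PKM fell on its other 2 probes as well, by 0.83 and 0.93, while PFKFB3's other probe did not pass (-0.29, adjusted p = 0.14).

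Of 21 p53 targets 7 were common rises and 0 common falls, with a median of 0.22, but the mimics' own medians were -0.12 after miR-608 and 0.65 after miR-552-3p. TNFRSF10B, a death receptor, stood at 13.81 and 13.77 after miR-608, 14.21 and 13.94 after miR-552-3p and 12.95 and 13.08 with control (0.92 ± 0.10, adjusted p = 0.00459). It rose on its other 2 probes too. MDM2, the inhibitor of p53, rose by 0.45 after miR-608 and 0.98 after miR-552-3p, and was not called in the 2-group fit (adjusted p = 0.15). CDKN1A, the cell cycle inhibitor p21, was no member: it fell with miR-608 by 0.56 (adjusted p = 0.00566) and rose with miR-552-3p by 0.90 (adjusted p = 0.0016). In the BCL2 and caspase list, 3 of 25 were common rises (BIK, BAX and PMAIP1) and 3 common falls (CASP2, CASP6 and CASP9). Both shares lay close to the 11.2% and 11.7% of all features. CASP2 and CASP6 fell after miR-552-3p (-1.24 and -1.27), but neither passed with miR-608 alone (-0.23, adjusted p = 0.0849, and -0.37, adjusted p = 0.0743). PMAIP1 and CASP9 were not called without control replicate 1 (adjusted p = 0.0541 and 0.0501). BAX rose by 0.72 ± 0.08 on one probe (adjusted p = 0.00454) and differed by -0.18 ± 0.12 on the other (adjusted p = 0.32).

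Of 22 genes of microRNA processing and silencing, 4 were common rises and 4 common falls, beside 11.2% and 11.7% of all features, with a median of -0.01. TNRC6A, the Argonaute partner named above, stood at 11.59 and 11.59 after miR-608, 11.70 and 11.71 after miR-552-3p and 10.36 and 10.35 with control (1.29 ± 0.06, adjusted p = 0.00188). It rose by nearly the same amount with each mimic, 1.24 and 1.35. AGO2 and AGO3, which encode Argonaute proteins, and DICER1, which makes mature microRNAs from hairpins, rose less, at 0.53, 0.50 and 0.24. Without control replicate 2, AGO2 (adjusted p = 0.0857), AGO3 (0.0581) and DICER1 (0.121) were not called, and DICER1 also lost its call without any other single array. After miR-552-3p alone neither AGO2 (0.29, adjusted p = 0.107) nor DICER1 (0.07, adjusted p = 0.552) passed. The falls were XPO5, MOV10, DROSHA and XRN1, of which MOV10 (adjusted p = 0.0548) and XRN1 (0.141) were not called without control replicate 1 and DROSHA (0.0581) without control replicate 2. XPO5 (-0.25, adjusted p = 0.0516) and XRN1 (-0.13, adjusted p = 0.224) did not pass after miR-608 alone, nor MOV10 after miR-552-3p alone (-0.29, adjusted p = 0.0679). Without control replicate 2 the list held 1 common rise and 2 common falls, and 2 common rises without control replicate 1.

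Among 19 measured targets of ATF4 and the unfolded protein response, 5 were common rises and 4 common falls (median -0.07), together a larger share than the 22.9% of all features. Without control replicate 1 these counts were 2 and 1, without control replicate 2 they were 3 and 1, without miR-608 replicate 1 the list held 3 common rises, and without miR-608 replicate 2 it held 2 common falls. The cystine transporter SLC7A11 had the largest rise of that list, at 10.98 and 10.95 after miR-608, 10.76 and 10.75 after miR-552-3p and 9.51 and 9.49 with control (1.36 ± 0.06, adjusted p = 0.00188). The sensor ATF6 rose (0.46 ± 0.06, adjusted p = 0.00778, or 0.0548 without control replicate 1), while XBP1, a transcription factor of the same response, fell (-0.59 ± 0.07, adjusted p = 0.00513). PPP1R15A, which directs a phosphatase to eIF2alpha, rose in the pooled test (0.68 ± 0.07, adjusted p = 0.00418) but did not pass with miR-608 alone (0.26, adjusted p = 0.076). The other rises were DNAJB9 (0.49) and DNAJC3 (0.75) and the other falls SLC3A2 (-0.48), DDIT4 (-0.63) and PSAT1 (-0.26). Each of these genes lost its call when either control array was left out. With the replicate block DNAJC3 (adjusted p = 0.0648) and PSAT1 (0.0664) were not called either.

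Interferon-stimulated genes gave 4 common rises and 2 common falls of 22, with medians of 0.53 after miR-608 and -0.26 after miR-552-3p. The counts of this paragraph stand beside 11.2% common rises and 11.7% common falls over all features. For the histone and receptor kinase lists both shares lay below these. The common rises were 2 without control replicate 1, control replicate 2, miR-608 replicate 1 or miR-552-3p replicate 1, and the common falls 0 without control replicate 1. ISG15, a ubiquitin-like protein, met the side rule, but it rose by 1.54 with miR-608 while its difference with miR-552-3p was 0.10 (adjusted p = 0.416). The RNA sensor IFIH1 rose with both, by 0.55 and 0.65. Core and linker histones gave 2 common rises and 2 common falls of 21, with 1 common rise without control replicate 1 and 0 common falls without control replicate 2. The list of receptor kinases with RAS-ERK and PI3K-AKT signalling held 1 common rise (MET) and 2 common falls (RPS6KB1 and ERBB2) of 21. Neither fall passed with miR-608 alone (-0.26, adjusted p = 0.0595, for RPS6KB1 and -0.47, adjusted p = 0.0542, for ERBB2). ERBB2 lost its pooled call without control replicate 1 (adjusted p = 0.0924), control replicate 2 (0.128), miR-608 replicate 1 (0.0676) or miR-608 replicate 2 (0.0589). MET, a receptor tyrosine kinase, rose by 0.39 ± 0.07 (adjusted p = 0.0153) but was not called without control replicate 1 (0.0869) or control replicate 2 (0.0616).

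**Figure D5:**
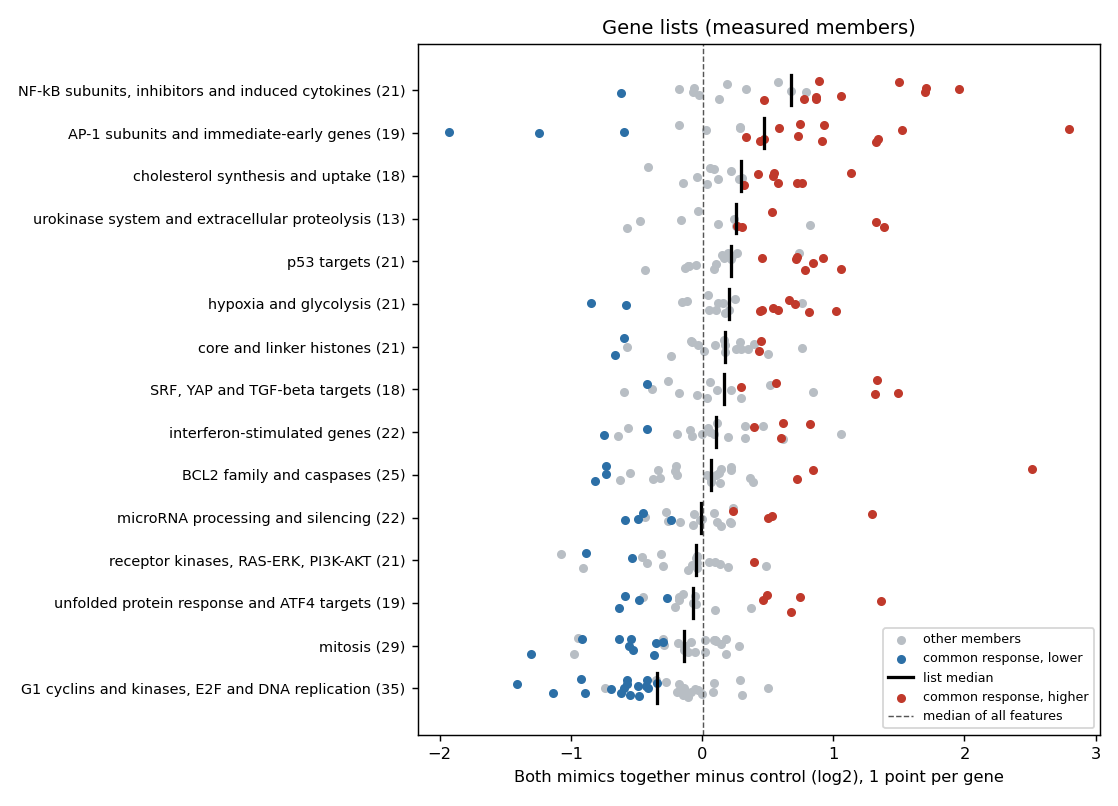
Difference of both mimics together minus control (x axis, log2), 1 point per measured gene of each list (y axis, number of genes in brackets). Common rises are red, common falls blue and other genes grey, a black bar marks the list's median, and the dashed line marks the median of all features. NF-kB and AP-1 genes had the highest medians, 0.68 and 0.47, and G1, E2F and replication genes the lowest, -0.34.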

How the data were processed

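Per the file headers, the authors deposited average signal intensity on a linear scale and a detection p-value for 47319 probes on 6 arrays, with GenomeStudio 2011.1 named in the submitters' processing notes. A background subtraction by the authors is not stated in the labels or headers. The log2 values of the authors' deposited series matrix were used as an alternative. All columns belonged to a labelled sample.

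In limma 3.58.1 (R 4.3.3), background was corrected with normexp using negative controls inferred from the detection p-values, an offset of 16 was added, and log2 values were quantile normalized. Probes detected at p under 0.05 on at least 2 of 6 arrays were kept, and the brightest of a gene's probes was used (3080 named genes had several). Gene names came from GEO's platform annotation, in which 30112 probes had 1 symbol, 8 several and 17199 none. Of the named probes, 30073 matched RefSeq's gene table. A single fit of 3 group means (lmFit, eBayes) gave both mimics together minus control, each mimic minus control and miR-608 minus miR-552-3p. P-values were two-sided and Benjamini-Hochberg adjusted over all 16891 features, with a threshold of 0.05. The number of arrays limits the precision. The scripts were tested on simulated data.

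The members, gene lists and rules were chosen with earlier results of these data known. The named-gene rule took the 14 largest common rises and 14 largest common falls by the smaller of both mimics' differences, up to 4 genes undetected with control and 4 undetected with the mimics, and up to 4 genes per list by p. JUN, JUNB, EGR1, DUSP4, SPRY4, NFKB2, RELB, NFKBIE, PTGS2, the genes of the NF-kB list that were not called, CCND1, CDK6, the MCM genes, PCNA, MDM2, CDKN1A, CD14, ABCA3, AGO2, DICER1 and the other genes named in counts of 5 or fewer were chosen after their values were seen. Other choices of fit, background, filter, scaling, probes and arrays were tried.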

Additional observations from a re-analysis of the deposited data

Results flagged for a closer look

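The direct test of the difference between the mimics (limma, miR-608 minus miR-552-3p, adjusted over all features) called 54 of the 91 named genes, with adjusted p of 0.000467 to 0.0474. In 35 of them the level was higher with miR-608 and in 19 it was lower. They include 6 of the 14 largest common rises and 2 of the 14 largest common falls. The same test called 37.1% of all features, beside which these counts stand. Ranking by the smaller of both mimics' differences favours genes that moved evenly, so the counts among the largest changes partly follow from that choice. In the genes called, a shared direction did not mean a shared size. No group held enough arrays for a test of single outlying arrays. All differences here are miR-608 minus miR-552-3p on the log2 scale.

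Among common rises, the level was higher with miR-608 for ANKRD37 (0.44), ATF6 (0.29), BIK (1.40), CCN2 (0.54), H1-2 (0.34), IL32 (1.61), INSIG1 (0.59), ISG15 (1.44), MSMO1 (0.67), NT5E (0.29), PDLIM7 (0.34), PLAU (1.42), PLAUR (0.76), REPS2 (1.08) and TAGLN (0.46). It was lower with miR-608 for ATF3 (-0.93), BAX (-0.46), CACUL1 (-0.74), CCN1 (-1.11), FOSL1 (-1.49), HMGCS1 (-0.49), IL11 (-0.97), KLF6 (-0.85), OXTR (-0.70), PPP1R15A (-0.84), RRAD (-0.88) and SESN1 (-1.66). CACUL1, REPS2 and RRAD were detected on no control array, so their place among the rises is a description with no test.

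Among common falls, the level was higher with miR-608, and thus the fall larger with miR-552-3p, for CASP2 (1.02), CASP6 (0.90), CCND3 (0.93), CEMIP (0.88), E2F2 (0.49), GINS3 (0.57), PKM (0.65), POLA1 (0.79), RPS6KB1 (1.26), XBP1 (0.32) and XPO5 (0.40). POLA1's other probe did not pass in the pooled test (-0.19 ± 0.20, adjusted p = 0.53). CRYBB2 also differed (0.45), but it was detected on no mimic array. Its value compares levels near background, so no larger fall is read from it. The fall was larger with miR-608 for DNAJC8 (-0.36), FOXM1 (-1.71) and MOV10 (-0.59).

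The pooled test also called list genes whose mimic arrays did not share a side. The level was higher with miR-608 for BIRC5 (1.88), CCL20 (2.05), CTSB (1.15), FGFR3 (3.11), H2BC5 (0.96), IFI27 (2.41), IFIT1 (2.72) and PLAT (1.62), and lower for CDCA3 (-2.21), GADD45A (-1.81), ID3 (-1.06) and IGF1R (-0.61). In the pooled test FGFR3 differed by -1.07 on the probe used, while its other probe did not pass (-0.30 ± 0.31, adjusted p = 0.53). IFIT1, an interferon-induced RNA-binding protein, was higher than control with miR-608 (0.72) and lower with miR-552-3p (-2.00).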

How the results depend on the processing

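The common response held 1899 rises and 1976 falls, within 2285 and 2694 called features. With the mimics' difference counted as spread (a 2-group fit) both counts were 167 and 193. With no detection filter, which adds features near background, 1196 and 1609 features were called, 1087 and 1303 were common, and 4068 had all mimic arrays below control. Leaving out single arrays in turn gave 838 to 1589 called higher and 1040 to 2067 called lower, 799 to 1439 common rises and 910 to 1646 common falls, the lowest without control replicate 1. The lone control array was then assumed to vary like the other groups. It gave 3287 to 4142 features above and 3034 to 3711 below control, since fewer arrays must be separated. The NF-kB list's median (0.68) was 0.47 with the authors' values, 0.41 without background correction, 0.47 without a detection filter and 0.51 to 0.81 without single arrays. The AP-1 median (0.47) was 0.59 with detection on all 6 arrays. The cause was not tested.

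Median scaling put the median of all features at -0.03 and the share of falls among calls at 63.4%, against 54.1%. With the replicate number as a block, 1572 rises and 1697 falls were common. Same-numbered arrays did not deviate together (r of -0.02 to 0.03). With 2 arrays per group this cannot show whether they were handled as pairs, which the labels do not say. Of 1428 alternative values of the 91 named genes, 1350 kept the call, 78 lost it (52 of them in the 2-group fit) and 0 reversed.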
